A study of Mus musculus with 12 samples.

Results

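The 38 interferon-stimulated genes described here are mouse genes that interferons are known to switch on, and they were followed in RNA-seq counts of whole liver. They were taken by gene name from both deposited count tables, and all 38 were found among the 20093 genes that the tables share. The data are 12 libraries of liver RNA from male C57BL/6N mice, 3 in each of 4 groups. All mice were HuR flox/flox, with *Elavl1* floxed, were 4 to 6 months old when injected and received an AAV8 virus under the hepatocyte promoter Tbg. The virus carried Cre in the groups labelled HuRHep-/- and no Cre (Tbg-null) in the groups labelled WT, so all 4 groups had been exposed to a viral vector. One pair of groups was fed normal chow, and the other was fed for 16 weeks a diet rich in fat, fructose and cholesterol (HFCF), with 40% of its energy as fat, 20% as fructose, and 2% cholesterol. The study's methods describe an albumin-Cre cross in place of the virus, and the tables do not show which description holds.

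Interferons are secreted proteins that warn cells of infection. Type I interferons bind the receptor IFNAR, receptor-bound kinases then act, and a transcription factor complex that holds STAT2 and IRF9 binds the interferon-stimulated response element (ISRE) in the promoters of target genes. Interferon gamma acts through the gamma-activated sequence (GAS), and among its strongest targets are the guanylate-binding proteins and the immunity-related GTPases. In the liver, hepatocytes, Kupffer cells and endothelial cells all express the receptors.

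Promoter sequence was given for 28 of the 38 genes (RefSeq, GRCm38.p6). The ISRE letters (GAAA, any 2 bases, then GAAA), searched on both strands in the 250 bases before the start of transcription, occurred in 15 of these 28 genes (53.6%) and in 936 of the 27025 genes of the whole table (3.46%). The GAS letters TTCNNNGAA occurred in 6 of the 28 (21.4%) against 8.13% of all genes. The stretches below belong to the 4 genes with a match among those called between genotypes in HFCF. Those of the near-identical neighbours *Ifit3b* and *Oas1g* and of *Ifit1* are added. Of the other genes called there, *Cmpk2* had no match and *Zbp1* had no promoter sequence given. Capitals mark the ISRE letters (TTTC, any 2 bases, then TTTC where the match lies on the other strand), and overlapping matches run together.
Isg15: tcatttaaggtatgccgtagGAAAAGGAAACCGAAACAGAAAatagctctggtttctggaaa
Ifit1: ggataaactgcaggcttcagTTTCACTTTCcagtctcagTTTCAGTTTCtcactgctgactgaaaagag
Ifit3: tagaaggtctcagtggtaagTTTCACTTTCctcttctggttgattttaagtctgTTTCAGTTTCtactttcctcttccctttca
Ifit3b: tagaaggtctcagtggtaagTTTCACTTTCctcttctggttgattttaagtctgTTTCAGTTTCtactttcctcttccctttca
Oas1a: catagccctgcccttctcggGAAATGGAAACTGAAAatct
Oas1g: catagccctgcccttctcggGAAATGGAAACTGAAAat
Gbp2: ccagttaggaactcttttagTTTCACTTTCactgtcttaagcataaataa
These stretches lie at chr4:156200855-156200916 (minus strand, *Isg15*), chr19:34640765-34640833 (plus, *Ifit1*), chr19:34583353-34583436 (plus, *Ifit3*) and chr19:34607749-34607832 (plus, *Ifit3b*). Those of *Oas1a*, *Oas1g* and *Gbp2* lie at chr5:120907526-120907565 (minus), chr5:120887614-120887651 (minus) and chr3:142620584-142620633 (plus). *Isg15* held 3 matches in a row, *Ifit1*, *Ifit3*, *Ifit3b*, *Oas1a* and *Oas1g* held 2 each, and *Gbp2* held 1. The *Ifit3* and *Ifit3b* stretches were the same in all 84 bases, and those of *Oas1a* and *Oas1g* in all 38 compared. A match is a string of letters and not a measured binding site.

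The depth of the 12 libraries ran from 30071731 to 35949203 counts on genes, and no pair of libraries held the same values. *Elavl1*, which encodes HuR and is the targeted gene, was higher in the livers labelled HuRHep-/-, which goes against the label. Its normalized counts (counts scaled by library size factors over the 12 libraries) were 996 to 1054 in chow WT and 1320 to 1454 in chow HuRHep-/-, and 811 to 917 in HFCF WT and 1095 to 1164 in HFCF HuRHep-/-. The log2 fold change of *Elavl1* was 0.41 in chow (adjusted p = 0.0219, limma) and 0.38 in HFCF (adjusted p = 0.0327, limma), so genotype is given throughout as labelled. The study reports efficient depletion of HuR by qPCR in HuRHep-/- livers of its acetaminophen experiment. Counts per gene do not separate reads over the floxed part, so the deletion was not checked here. Hepatocyte markers took between 85571 and 144243 CPM (counts scaled to library size) of each library. A gene was called when its adjusted p over all genes tested was at most 0.05 (limma on log2 CPM with Benjamini-Hochberg adjustment), its fold change was at least 1.5 and each group held at least 10 counts. The study describes the chow libraries as separate mice, no source used here says so for the HFCF libraries, and the p-values measure the spread between these samples. In bulk liver, fewer cells of a type and less RNA per cell cannot be told apart.

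**Figure D1:**
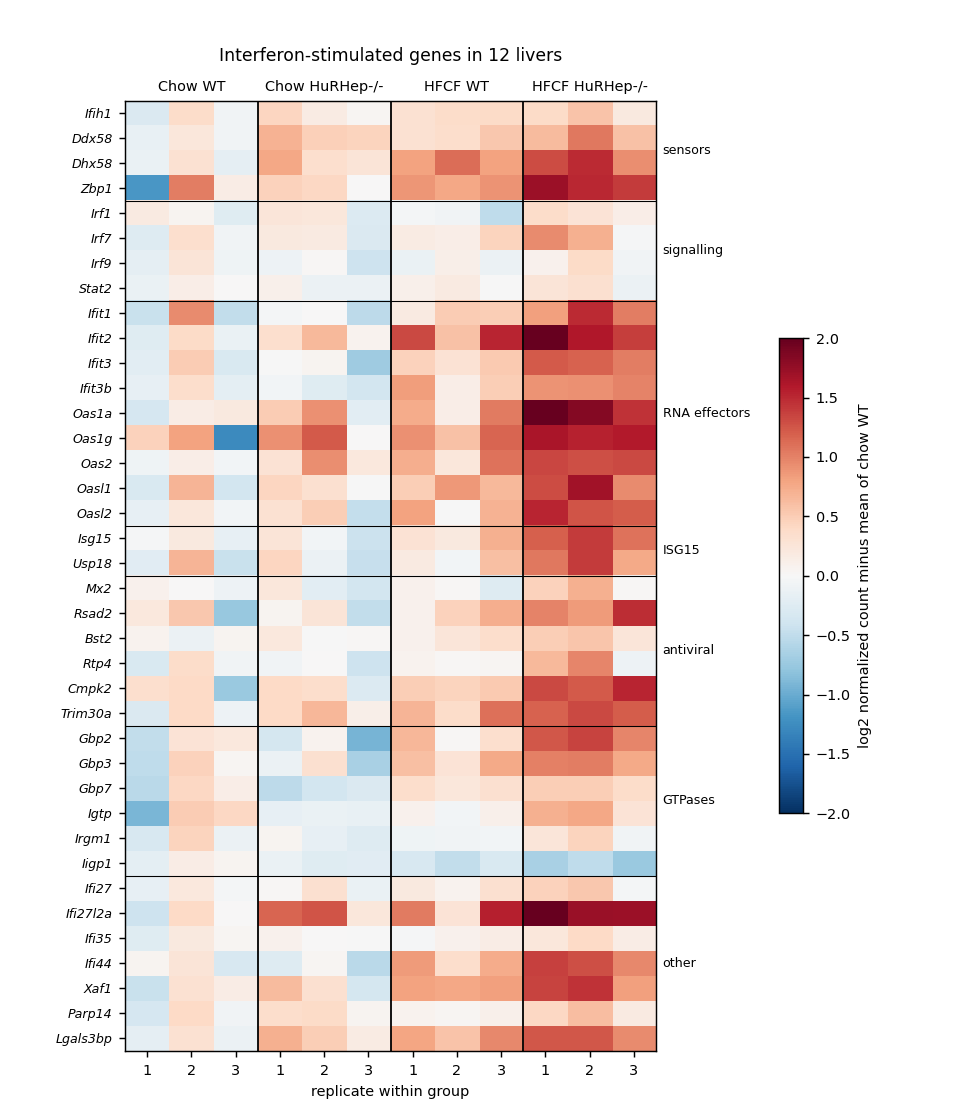
Heat map of the 38 interferon-stimulated genes (rows, in order of role) in the 12 livers (columns, 3 replicates per group), coloured by log2 normalized count minus the mean log2 value of the 3 chow WT livers, with the colour scale ending at -2 and 2. The HFCF HuRHep-/- livers form the reddest block, *Iigp1* runs the other way, and chow WT replicate 2 is the highest liver of its group in 34 of 38 genes.

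All 38 genes passed the filter on low counts in every comparison. Per length, the mean level in chow WT livers ran from 164 RPKM (reads per kilobase of exon, scaled to library size) for *Bst2*, which tethers budding virus to the cell surface, to 0.23 RPKM for *Ifi44*. *Ifi27*, a mitochondrial interferon-induced protein, followed at 58.8 RPKM and *Iigp1*, an immunity-related GTPase, at 38.9 RPKM. The median of the 38 was 2.01 RPKM, with 6 genes at 10 RPKM or more and 10 genes under 1 RPKM, among them *Cmpk2*, *Ifit2*, *Oas2* and *Rsad2*.

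The replicates of a group did not sit level. In chow WT, replicate 2 held the highest value in 34 of the 38 genes and the ratio of highest to lowest liver had a median of 1.56, with the widest spread in *Zbp1* (4.55-fold). Chow HuRHep-/- replicate 3 was the lowest of its group in 33 of 38 genes, and HFCF HuRHep-/- replicate 3 in 31 of 38. In HFCF WT, replicate 3 was highest in 25 genes and replicate 2 lowest in 25. Counts of the 38 genes are given below with and without these livers where they depend on them.

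In chow, the test between genotypes was passed by none of these 38 interferon-stimulated genes. None of the 38 was called (limma), in either direction, against 1.27% of the 13526 genes tested that were called higher and 0.969% called lower in livers labelled HuRHep-/-. At an unadjusted p under 0.05 there were 4 of the 38 (*Ddx58*, *Dhx58*, *Lgals3bp* and *Ifi27l2a*), where 3185 of the 13526 genes tested were (limma). Limma with voom weights called 0 as well. The median log2 fold change of the 38 was 0.05, beside a median of 0.0046 over all genes tested, with 21 estimates higher and 17 lower. Values of the groups were apart in 2 genes (*Ddx58* and *Oas2*), both higher in HuRHep-/-, where 15.3% of all genes were apart and higher and 14.2% apart and lower. Without 1 liver the median ran from -0.04 to 0.21, and it was below 0 without chow WT replicate 1 (-0.043) and without chow HuRHep-/- replicate 1 (-0.017) or 2 (-0.0092). Without chow WT replicate 2 the median was 0.21 and 1 gene was called (*Ddx58*), and without chow WT replicate 3 it was 0.024. Without chow HuRHep-/- replicate 3 the median was 0.17 and *Ifi27l2a* was called higher, and without chow WT replicate 1 *Igtp* was called lower.

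*Ddx58* encodes RIG-I, the cytosolic sensor of uncapped viral RNA, and came closest to the threshold. Its normalized counts were 394, 511 and 415 in chow WT and 709, 610 and 594 in chow HuRHep-/-. The groups did not overlap, and the log2 fold change was 0.55 (standard error 0.12, adjusted p = 0.052, limma). The other sensors also had higher estimates, but the groups overlapped over the sensors. Per liver, the sensor median log2 difference from the chow WT mean was -0.22, 0.33 and -0.07 in WT and 0.58, 0.37 and 0.15 in HuRHep-/-. The *Zbp1* values of chow WT, given below, span those of chow HuRHep-/-. *Dhx58* (LGP2, a regulator of RIG-I and MDA5) stood at 0.46, *Zbp1*, a sensor of Z-form nucleic acid that can trigger necroptosis, at 0.30, and *Ifih1* (MDA5, a sensor of long double-stranded RNA) at 0.21, with adjusted p from 0.186 to 0.749 (limma). The 6 interferon-inducible GTPases all had lower estimates, from -0.40 (*Gbp2*) to -0.11 (*Irgm1*), with none called. Per liver, their median log2 difference from the chow WT mean was -0.50, 0.43 and 0.09 in WT. In HuRHep-/- it was -0.15, -0.14 and -0.27, within the WT range. A difference between sensors and GTPases was not tested.

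In HFCF, most of the 38 had higher estimates in the livers labelled HuRHep-/-. Of the 38, 6 were called higher (*Oas1a*, *Cmpk2*, *Gbp2*, *Isg15*, *Ifit3* and *Zbp1*) and 0 lower, where 2.15% of 14295 genes tested were called higher and 1.47% lower. The estimates of 37 of the 38 were above 0, and their median log2 fold change was 0.45, beside -0.0016 over all genes tested. Groups were apart and higher in 21 genes, where 17.6% of all genes were, and apart and lower in 1 (*Iigp1*), where 19.2% were. At an unadjusted p under 0.05 there were 23 of the 38, where 4218 of the 14295 genes tested were (limma). These calls rest on few livers. Without HFCF WT replicate 1, HFCF HuRHep-/- replicate 1 or HFCF HuRHep-/- replicate 2, none of the 38 was called (and 0.275%, 0.199% and 0.227% of all genes tested). Without HFCF WT replicate 2 the count was 3 (2.49% of all genes called), without HFCF WT replicate 3 it was 10 (5.99%), and without HFCF HuRHep-/- replicate 3 it was 2 (0.698%). The median of the 38 stayed between 0.39 and 0.58 in these 6 fits. When limma tested against the 1.5-fold limit itself, 0 of the 38 were called, and a fit over all 12 libraries called 2 (*Isg15* and *Oas1a*).

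**Figure D2:**
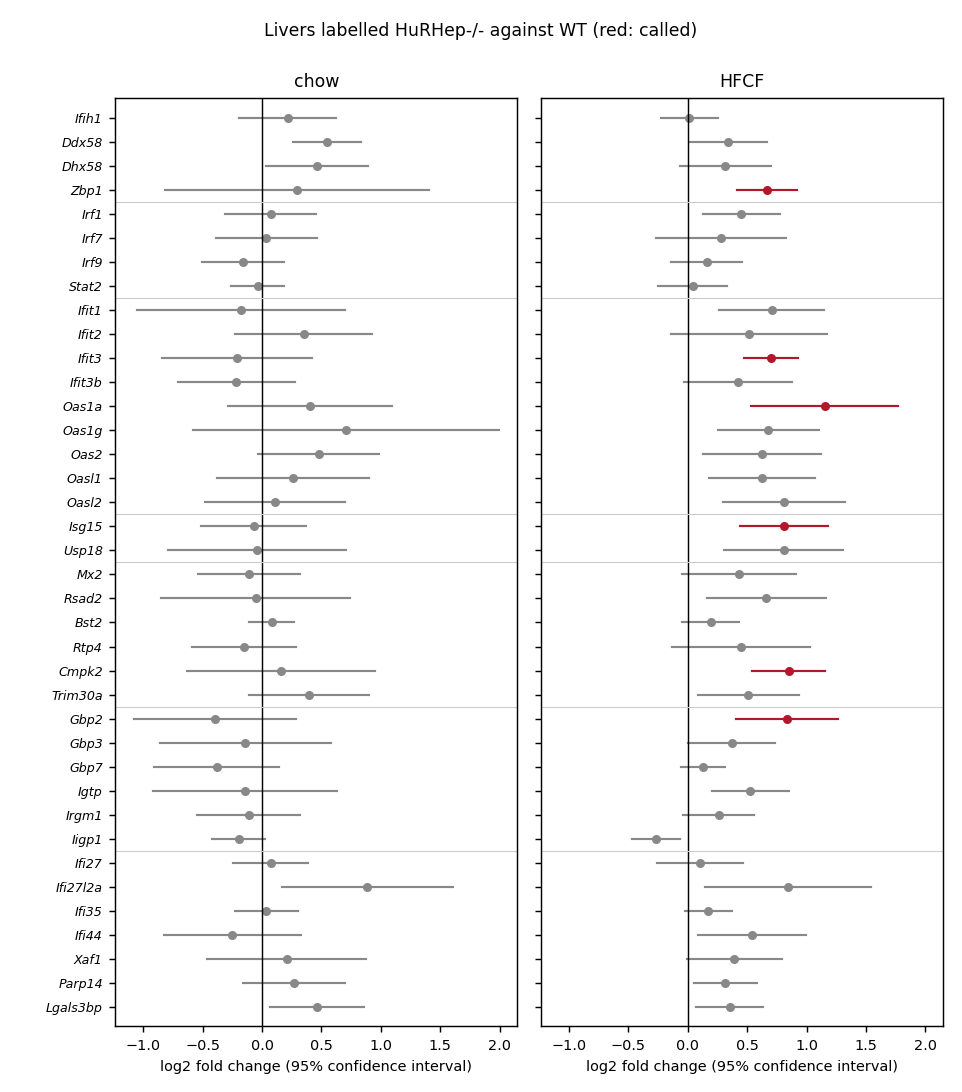
Log2 fold change of livers labelled HuRHep-/- against WT (x axis) for each of the 38 genes (y axis, in order of role), in chow (left) and HFCF (right). Points are limma estimates, lines are 95% confidence intervals, and red marks called genes. No gene is red in chow, and in HFCF 6 are red and 37 of 38 points lie to the right of 0.

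Of the 9 effectors that act on RNA, 2 were called (*Ifit3* and *Oas1a*), where 2.15% of all genes were called higher, and the median log2 fold change of the 9 was 0.68. *Ifit3* (chromosome 19, 34583531 to 34588731, plus strand) encodes a partner of IFIT1 in the binding of foreign RNA 5′ ends. Its normalized counts were 396, 349 and 413 in HFCF WT and 672, 646 and 584 in HFCF HuRHep-/-. The groups were well apart, and the log2 fold change was 0.70 (standard error 0.097, adjusted p = 0.0189, limma). It was called in 3 of the 6 fits without 1 liver. *Ifit3* shares 61.8% of its 31-base words with *Ifit3b*, so the split of reads between them is uncertain. Summed over both genes, the counts were 482 ± 52.1 in HFCF WT and 763 ± 41.4 in HFCF HuRHep-/- (SD, n = 3 per group), a ratio of 1.58.

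*Oas1a* (chromosome 5, 120896256 to 120907521, minus strand) encodes a 2′-5′-oligoadenylate synthetase, which senses double-stranded RNA and activates the nuclease RNase L. It had 123, 81.0 and 152 normalized counts in HFCF WT and 325, 265 and 202 in HFCF HuRHep-/-. Every HuRHep-/- liver was above every WT liver, and the log2 fold change was 1.15 (standard error 0.27, adjusted p = 0.0484, limma), the largest estimate of the 38 in HFCF. The call held in 1 of the 6 fits without 1 liver and was lost with RLE and upper-quartile scaling. *Oas1a* and *Oas1g* share 68.8% and 65.4% of their words. Summed over the pair, HFCF WT had 180 ± 47.6 and HFCF HuRHep-/- 361 ± 63.6 normalized counts (SD, n = 3 per group), a ratio of 2.01. Of the other 7 genes of this group, 6 (*Ifit1*, *Ifit3b*, *Oas1g*, *Oas2*, *Oasl1* and *Oasl2*) did not overlap between the genotypes, where 17.6% of all genes were apart and higher, with log2 fold changes from 0.42 to 0.81 and adjusted p from 0.0657 to 0.195 (limma).

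*Isg15* (chromosome 4, 156199424 to 156200818, minus strand) encodes the ubiquitin-like protein that is attached to other proteins in interferon-treated cells. It had 219, 205 and 295 normalized counts in HFCF WT and 410, 472 and 381 in HFCF HuRHep-/-. The lowest HuRHep-/- liver was above the highest WT liver, and the log2 fold change was 0.81 (standard error 0.16, adjusted p = 0.0348, limma), with the call kept in 1 of 6 fits without 1 liver. *Usp18*, the protease that removes ISG15 and dampens IFNAR signalling, went from 231, 197 and 311 to 424, 539 and 344 normalized counts. Its groups did not overlap either, but it was not called (log2 fold change 0.81, standard error 0.21, adjusted p = 0.0645, limma).

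*Cmpk2* (chromosome 12, 26469204 to 26479837, plus strand) encodes a mitochondrial nucleotide kinase and lies beside *Rsad2*, the gene of the antiviral enzyme viperin. *Cmpk2* had 83.5, 81.0 and 85.4 normalized counts in HFCF WT and 148, 139 and 170 in HFCF HuRHep-/-. The WT livers were nearly level and all HuRHep-/- livers were above them, and the log2 fold change was 0.85 (standard error 0.13, adjusted p = 0.0225, limma). It was called in 2 of the 6 fits without 1 liver. *Rsad2* had 128, 165 and 200 normalized counts in HFCF WT and 239, 217 and 334 in HFCF HuRHep-/-. These groups were also apart, but *Rsad2* was not called (log2 fold change 0.66, adjusted p = 0.0991, limma).

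*Gbp2* (chromosome 3, 142620602 to 142638008, plus strand) is a guanylate-binding protein that coats intracellular bacteria and parasites. Its normalized counts were 214, 137 and 170 in HFCF WT and 320, 344 and 266 in HFCF HuRHep-/-. The groups did not overlap, and the log2 fold change was 0.83 (standard error 0.18, adjusted p = 0.0446, limma), but the call was lost in all 6 fits without 1 liver. *Zbp1* (chromosome 2, 173206612 to 173218923, minus strand) had 251, 232 and 254 normalized counts in HFCF WT and 442, 386 and 357 in HFCF HuRHep-/-. Its groups were far apart, and the log2 fold change was 0.66 (standard error 0.11, adjusted p = 0.0235, limma), with a call in 2 of the 6 fits without 1 liver. A two-sided exact permutation test of a single gene gives p = 0.1 for each gene whose groups did not overlap, the smallest p that 3 livers against 3 allow.

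**Figure D3:**
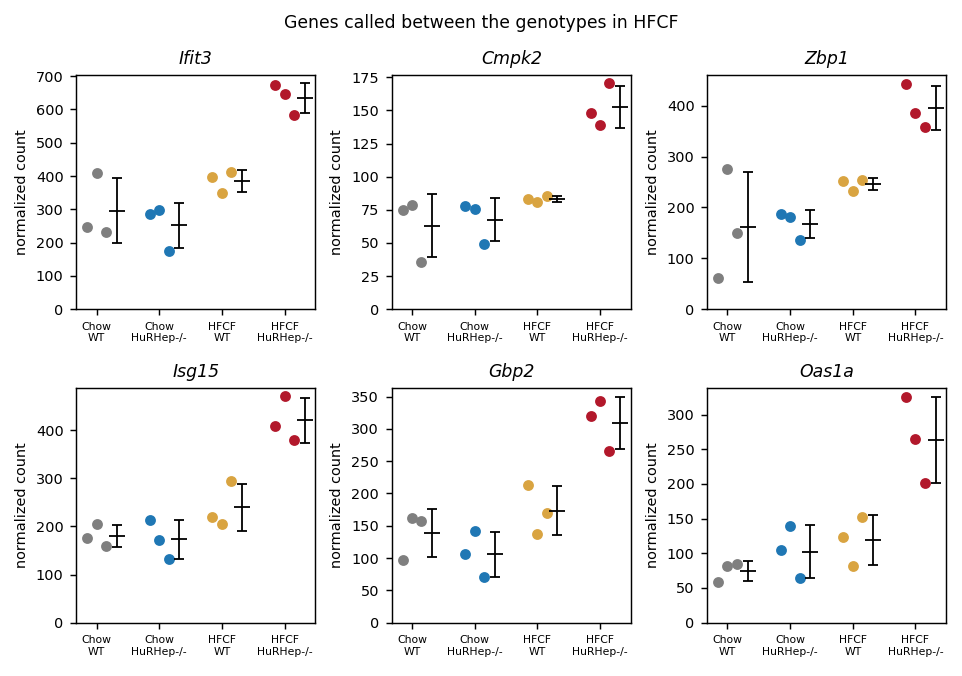
Normalized counts (y axis, from 0) of the 6 genes called between genotypes in HFCF, in each of the 12 livers (coloured points, 3 per group). Black bars are the group mean and SD (n = 3). In all 6 panels the 3 HFCF HuRHep-/- livers lie above the 3 HFCF WT livers, and the chow groups overlap.

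*Irf1*, *Irf7*, *Irf9* and *Stat2* had log2 fold changes between 0.04 and 0.45 in HFCF, with none called. *Iigp1* was the one gene of the 38 that lay lower in HFCF HuRHep-/-. It had 6107, 5441 and 6190 normalized counts in HFCF WT and 4908, 5408 and 4601 in HFCF HuRHep-/-, which did not overlap but were close. The difference did not pass the test (log2 fold change -0.27, standard error 0.085, adjusted p = 0.0956, limma).

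The diet comparisons set the HFCF livers against chow livers of the same label. The chow and HFCF libraries were deposited in separate tables, so diet and table cannot be told apart, and both comparisons share their samples with the genotype comparisons above. In livers labelled WT, 6 of the 38 were called higher on HFCF (*Dhx58*, *Lgals3bp*, *Xaf1*, *Trim30a*, *Ifit2* and *Oas2*) and 0 lower, where 6.14% of the 14535 genes tested were called higher and 3.24% lower. The median log2 fold change of the 38 was 0.40, beside 0.0095 over all genes. In livers labelled HuRHep-/-, 23 of the 38 were called higher and 0 lower, where 14.2% of genes were called higher and 4.90% lower. The median there was 0.84, beside 0.0023 over all genes. Without 1 of the 12 libraries the count ran from 2 to 12 in WT, where 5.84% to 12.3% of all genes were called, and from 16 to 24 in HuRHep-/-, where 14.8% to 19.7% were. The 16 in HuRHep-/- came without chow HuRHep-/- replicate 3. The 12 calls in WT came without chow WT replicate 2, and the 2 without chow WT replicate 1 or without HFCF WT replicate 3. Without chow WT replicate 3 or HFCF WT replicate 1 there were 3, and without HFCF WT replicate 2 there were 9.

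**Figure D4:**
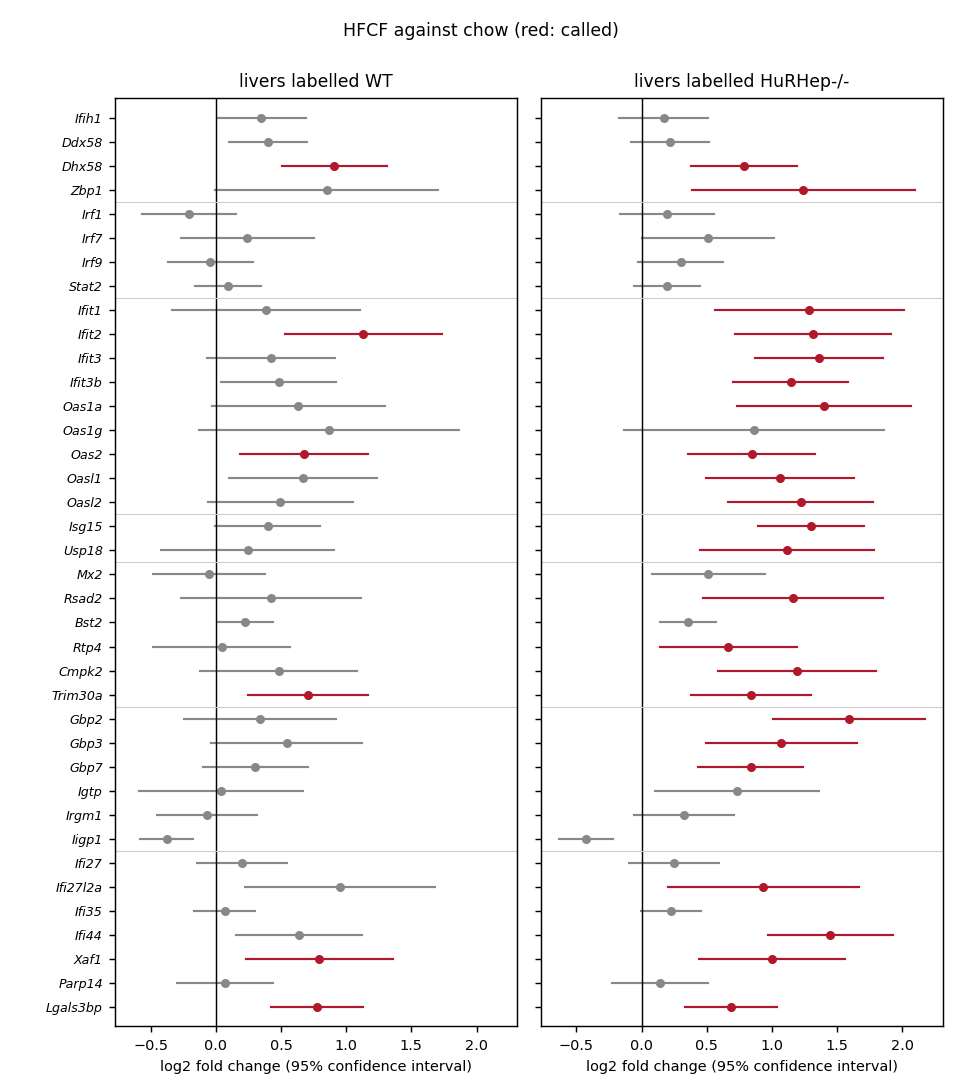
Log2 fold change of HFCF against chow (x axis) for each of the 38 genes (y axis, in order of role), in livers labelled WT (left) and HuRHep-/- (right). Points are limma estimates, lines are 95% confidence intervals, and red marks called genes. Red points number 6 on the left and 23 on the right, and *Iigp1* lies left of 0 in both panels.

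By role, 8 of the 9 effectors that act on RNA were called on HFCF in livers labelled HuRHep-/-, with *Oas1g* the exception, where 14.2% of all genes were called higher. In WT 2 of the 9 were called, where 6.14% of all genes were. *Ifit2* (chromosome 19, 34550694 to 34576419, plus strand), which binds AU-rich double-stranded RNA, had 36.9, 56.9 and 40.0 normalized counts in chow WT and 110, 65.4 and 126 in HFCF WT. In HuRHep-/- it had 55.2, 68.4 and 46.0 in chow and 180, 133 and 115 in HFCF. The HFCF livers were above the chow livers in both labels, with log2 fold changes of 1.13 in WT (adjusted p = 0.0128, limma) and 1.32 in HuRHep-/- (adjusted p = 0.00366, limma). The call in WT was lost without chow WT replicate 1 or HFCF WT replicate 3 (adjusted p = 0.0529 and 0.0539, limma).

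*Ifit3b* had 60.4, 86.4 and 58.9 normalized counts in chow WT, 121, 73.7 and 95.1 in HFCF WT, 65.1, 56.9 and 52.3 in chow HuRHep-/- and 126, 127 and 134 in HFCF HuRHep-/-. The diets overlapped in WT and were apart in HuRHep-/-, where the log2 fold change was 1.15 (standard error 0.20, adjusted p = 0.00153, limma). *Oasl1* and *Oasl2*, relatives of the oligoadenylate synthetases, went the same way in HuRHep-/-. *Oasl1* had 314, 292 and 232 normalized counts in chow and 575, 747 and 450 in HFCF, and *Oasl2* had 165, 187 and 96.3 in chow and 382, 321 and 308 in HFCF. No HFCF liver was as low as the highest chow liver for either gene, with log2 fold changes of 1.06 (adjusted p = 0.00839, limma) and 1.22 (adjusted p = 0.00379, limma).

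Among the genes called between genotypes in HFCF, *Isg15* had 176, 205 and 160 normalized counts in chow WT and 214, 173 and 133 in chow HuRHep-/-. Against the HFCF values above, its log2 fold change was 0.40 in WT (adjusted p = 0.138, limma) and 1.30 in HuRHep-/- (adjusted p = 0.000523, limma), the smallest adjusted p of the 38. *Gbp2* had the largest estimate of the 38, 1.59 in HuRHep-/- (standard error 0.27, adjusted p = 0.00119, limma), from 106, 141 and 71.2 normalized counts in chow, beside 0.34 in WT (adjusted p = 0.38, limma), where chow livers had 96.3, 163 and 157. *Ifit3* had 249, 408 and 231 in chow WT and 285, 298 and 175 in chow HuRHep-/-. Its diet estimates were 0.43 in WT (adjusted p = 0.187, limma) and 1.36 in HuRHep-/- (adjusted p = 0.00108, limma).

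*Oas1a*, *Cmpk2* and *Zbp1* were each called in HuRHep-/- and not in WT. In chow, *Oas1a* had 58.2, 81.9 and 84.5 normalized counts in WT and 105, 139 and 63.8 in HuRHep-/-, and its log2 fold changes with HFCF were 0.63 and 1.40. *Cmpk2* had 75.0, 78.5 and 35.6 in chow WT and 77.9, 75.8 and 49.2 in chow HuRHep-/-, with 0.48 and 1.19. *Zbp1* had 60.4, 275 and 150 in chow WT and 186, 181 and 136 in chow HuRHep-/-, with 0.85 and 1.24. In chow WT the *Zbp1* values spanned more than those of any other gene of the 38, and its call in HuRHep-/- was lost in 4 of 12 fits without 1 library (without chow HuRHep-/- replicate 3 or any 1 of the HFCF HuRHep-/- replicates).

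Of the other antiviral effectors, *Trim30a*, a member of the TRIM family, had 98.5, 158 and 112 normalized counts in chow WT and 192, 155 and 257 in HFCF WT. In HuRHep-/- it had 159, 191 and 131 in chow and 273, 300 and 279 in HFCF. The diets overlapped by a narrow margin in WT and were apart in HuRHep-/-, with log2 fold changes of 0.71 (adjusted p = 0.0318, limma) and 0.84 (adjusted p = 0.00954, limma). The call in WT was lost without chow WT replicate 1 or 3 and without HFCF WT replicate 1 or 3. *Bst2*, the most abundant of the 38 per length, changed by less than 1.5-fold in HuRHep-/- (log2 fold change 0.36, adjusted p = 0.0146, limma).

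Among the sensors, *Dhx58* (chromosome 11, 100694884 to 100704271, minus strand) had 183, 246 and 177 normalized counts in chow WT and 350, 432 and 349 in HFCF WT. In HuRHep-/- it had 342, 252 and 239 in chow and 494, 563 and 379 in HFCF. The diets were apart in both labels, with log2 fold changes of 0.91 (standard error 0.18, adjusted p = 0.00553, limma) in WT and 0.79 (standard error 0.18, adjusted p = 0.00676, limma) in HuRHep-/-, and both calls held in all 12 fits without 1 library. *Ddx58* and *Ifih1* were called in neither. *Lgals3bp*, a secreted glycoprotein that binds galectins, was called in both labels, from 1407, 1975 and 1469 to 2766, 2385 and 3100 normalized counts in WT and from 2625, 2251 and 1791 to 3796, 3765 and 3083 in HuRHep-/-. Diets did not overlap, with log2 fold changes of 0.77 and 0.69, and the call in HuRHep-/- was lost without chow HuRHep-/- replicate 3 (0.54).

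*Ifi44*, a microtubule-associated interferon-induced protein (chromosome 3, 151730922 to 151749960, minus strand), had 49.3, 56.9 and 37.8 normalized counts in chow WT and 85.3, 60.2 and 78.9 in HFCF WT. In HuRHep-/- it had 39.4, 48.4 and 32.4 in chow and 122, 116 and 91.6 in HFCF. The diets were apart in both labels, but *Ifi44* was called in HuRHep-/- alone, with 1.45 (standard error 0.22, adjusted p = 0.000727, limma) against 0.64 in WT (adjusted p = 0.0539, limma). *Gbp3* and *Gbp7*, neighbours of *Gbp2* on chromosome 3, had diet estimates of 1.07 and 0.84 in HuRHep-/-, both called, and of 0.54 and 0.30 in WT. In HuRHep-/-, *Gbp3* went from 110, 150 and 76.4 to 241, 244 and 202 normalized counts and *Gbp7* from 268, 300 and 316 to 543, 539 and 497. All HFCF livers were above all chow livers for both genes. *Gbp7* shares 14.8% of its words with other genes, mostly the overlapping *Gm43802*.

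Some genes of the 38 did not follow. *Iigp1* was lower on HFCF in both labels, from 6669, 8507 and 7936 normalized counts to those given above in WT, and from 6958, 6463 and 6568 in HuRHep-/-. The diets did not overlap, and its log2 fold changes were -0.38 (adjusted p = 0.0146, limma) and -0.42 (adjusted p = 0.00497, limma), under the fold threshold in both. *Irf1*, *Irf7*, *Irf9* and *Stat2* were called in neither label, with estimates from -0.21 to 0.24 in WT and from 0.19 to 0.51 in HuRHep-/-. *Ifi27*, *Ifi35*, *Parp14* and *Irgm1* were not called in any comparison either.

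The difference between the 2 diet responses, which is also the difference between the 2 genotype effects, was tested as an interaction over all 12 libraries. None of the 38 was called (limma, adjusted p of at most 0.05), nor any of the 14535 genes tested (0% in either direction), and limma with voom weights called 0 of the 38. At an unadjusted p under 0.05 there were 5 of the 38 (*Isg15*, *Gbp2*, *Ifit3*, *Ifi44* and *Ifit3b*), all with estimates above 0. Over all genes, 2086 of the 14535 tested were (limma). The median interaction of the 38 on the log2 scale was 0.39, beside 0.0048 over all genes, with 31 estimates above 0 and 7 below. It was 1.25 for *Gbp2* (95% confidence interval 0.43 to 2.07, adjusted p = 0.204, limma) and 0.90 for *Isg15* (0.33 to 1.47, adjusted p = 0.198, limma). For *Dhx58* it was -0.12 (-0.70 to 0.45) and for *Lgals3bp* -0.09 (-0.59 to 0.41). The median was 0.18 without chow WT replicate 2, 0.24 without chow HuRHep-/- replicate 3 and 0.25 without HFCF HuRHep-/- replicate 2. That 6 genes were called in WT and 23 in HuRHep-/- therefore does not show that any gene responded differently.

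The rest of the pathway was read from lists of genes. Of 21 interferon genes, 2 were listed in both tables (*Ifng* and *Ifnk*), neither passed the filter, and together they held 0 to 6 counts per library. *Ifng*, the interferon of T and NK cells, had 0 to 5 counts. The HFCF table listed 4 more (*Ifna2*, *Ifna7*, *Ifna16* and *Ifnz*), each with 0 or 1 count per library, and all its interferon genes together held 2 to 6 counts per library in WT and 3 to 6 in HuRHep-/-. Of 5 receptor genes tested, *Il10rb*, a shared chain of the lambda interferon and interleukin-10 receptors, was called higher on HFCF in both labels (log2 fold changes 0.71 and 0.81). Of all genes, 6.14% were called higher in WT and 14.2% in HuRHep-/-. Between genotypes 0 of the 5 were called (limma). At an unadjusted p under 0.05 there was 1 in chow, where 3185 of the 13526 genes tested were (limma). In HFCF there were 2, where 4218 of the 14295 genes tested were (limma). The call of *Il10rb* in WT was lost without chow WT replicate 1 or 3 and without HFCF WT replicate 1 or 3. *Ifnar2*, a chain of the type I receptor, was lower in HFCF HuRHep-/- than in HFCF WT (log2 fold change -0.34, adjusted p = 0.0365, limma), under the fold threshold. Among 18 genes of sensing upstream of interferon, 2 were called higher in HFCF HuRHep-/- than in HFCF WT, where 2.15% of all genes were. These were *Tmem173*, which encodes STING, the adaptor of cytosolic DNA sensing (0.85), and *Irf8*, a transcription factor of myeloid cells (0.76). Without 1 liver 0 or 1 of the 18 was called. With diet, 2 of the 18 were called higher and 1 lower in WT (1 to 4 higher without 1 library), where 6.14% and 3.24% of all genes were, and 5 higher and 1 lower in HuRHep-/- (2 higher without chow HuRHep-/- replicate 3 and 3 without HFCF HuRHep-/- replicate 1 or 2), where 14.2% and 4.90% were. Of 18 inhibitors of interferon signalling, 0 were called between genotypes in HFCF, where 2.15% of all genes were called higher. At an unadjusted p under 0.05 there were 4, where 4218 of the 14295 genes tested were (limma). With diet in WT 0 were called, where 6.14% of all genes were called higher. At an unadjusted p under 0.05 there were 9, where 5503 of the 14535 genes tested were (limma). With diet in HuRHep-/- 2 were called higher (*Samhd1*, a nucleotide hydrolase, 0.65, and *Ptpn6*, the phosphatase SHP-1, 0.64), where 14.2% of all genes were. Both were lost without chow HuRHep-/- replicate 3.

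Among 79 other interferon-stimulated genes tested, 7 were called higher and 0 lower in HFCF HuRHep-/- against HFCF WT, with a median log2 fold change of 0.38, where 2.15% of all genes were called higher. Among the 7 called, the largest were *Cxcl10*, a chemokine for T cells (1.27), *Mx1*, a dynamin-like antiviral GTPase (1.03), *Ly6e* (0.89) and *Tgtp2* (0.84). Over all 79, the largest estimate was 1.48, for a gene not called. In chow 1 of the 79 was called higher (*Mlkl*, the effector of necroptosis, 0.97), with a median of 0.06, where 1.27% of all genes were called higher. With diet, 15 were called higher and 1 lower in WT (median 0.33), where 6.14% of all genes were called higher, and 42 higher and 0 lower in HuRHep-/- (median 0.77), where 14.2% were. Without 1 library, in fits added after the data were seen, the counts called higher of these genes ran from 0 to 8 between genotypes in HFCF (0 without HFCF HuRHep-/- replicate 1 or 2, 2 without HFCF WT replicate 1 and 3 without HFCF HuRHep-/- replicate 3), from 0 to 3 in chow (3 without chow WT replicate 2), from 9 to 19 with diet in WT and from 31 to 42 with diet in HuRHep-/-. In HuRHep-/- the largest were *Ifi27l2b* (3.46), *Cxcl10* (2.43), *Ciita*, the master regulator of MHC class II genes (2.05), and *Cxcl9* (1.84).

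The levels of marker genes of other liver cells are given beside these results, and their part in them was not tested. Between genotypes in HFCF, where 2.15% of all genes were called higher, only the cholangiocyte and plasmacytoid dendritic cell lists of the 9 marker lists held a called gene. Between genotypes in HFCF, 16 of 17 macrophage markers had estimates above 0 (median 0.62, 0 called), and their summed level was 487 to 785 CPM in WT and 758 to 1039 CPM in HuRHep-/-. T and NK cell markers had 9 of 10 above 0 (median 0.94, 0 called), at 5.66 to 7.02 CPM in WT and 7.68 to 11.1 CPM in HuRHep-/-. Of 8 cholangiocyte markers 5 were called higher (median 1.41), at 42.8 to 93.8 CPM in WT and 145 to 261 CPM in HuRHep-/-, and the calls were 0 without HFCF WT replicate 1 or any 1 of the HuRHep-/- livers. Without 1 liver, 0 to 5 of the macrophage markers were called higher. All 5 plasmacytoid dendritic cell markers tested had estimates above 0 (median 0.76) and 1 was called (*Irf8*), and 3 of the 9 listed (*Cox6a2*, *Klk1* and *Pacsin1*) were at 0 in some library. B cell markers had 7 of 7 above 0 (median 0.69, 0 called), at 11.7 to 24.4 CPM in WT and 20.5 to 29.2 CPM in HuRHep-/-. Stellate cell markers had 11 of 12 above 0 (median 0.36, 0 called), at 325 to 590 CPM and 562 to 653 CPM, and neutrophil markers 3 of 4 (median 0.72, 0 called), at 2.66 to 3.97 CPM and 5.09 to 6.11 CPM. Sinusoidal endothelial cell markers had a median of 0.12 and hepatocyte markers of -0.05, with 0 called in either list.

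With diet in livers labelled HuRHep-/-, 12 of 17 macrophage markers were called higher and 1 lower (*Cd163*), 12 of 12 stellate cell markers higher and 8 of 8 cholangiocyte markers higher, where 14.2% of all genes were called higher and 4.90% lower. In WT the counts called higher were 7 of 17, 4 of 12 and 0 of 8, where 6.14% of all genes were. Without 1 library the macrophage, stellate and cholangiocyte counts were 9 to 13, 12 in each fit and 5 to 8 in HuRHep-/-, and they ran from 4 to 12, 3 to 9 and 0 to 1 in WT. The lowest cholangiocyte count in HuRHep-/- came without chow HuRHep-/- replicate 3, HFCF HuRHep-/- replicate 1 or HFCF HuRHep-/- replicate 3. The macrophage count in WT was 12 and the stellate count 9 without HFCF WT replicate 2, and the macrophage count was 4 without chow WT replicate 1 or HFCF WT replicate 1 or 3. T and NK cell markers were called higher in 4 of 11 in HuRHep-/- and in 0 of 11 in WT. Of 12 hepatocyte markers, 3 were called lower in HuRHep-/- and 4 in WT, where 4.90% and 3.24% of all genes were. In chow, macrophage markers had a median of 0.43 between genotypes (16 of 17 above 0, 0 called), beside the 0.05 of the interferon-stimulated genes.

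**Figure D5:**
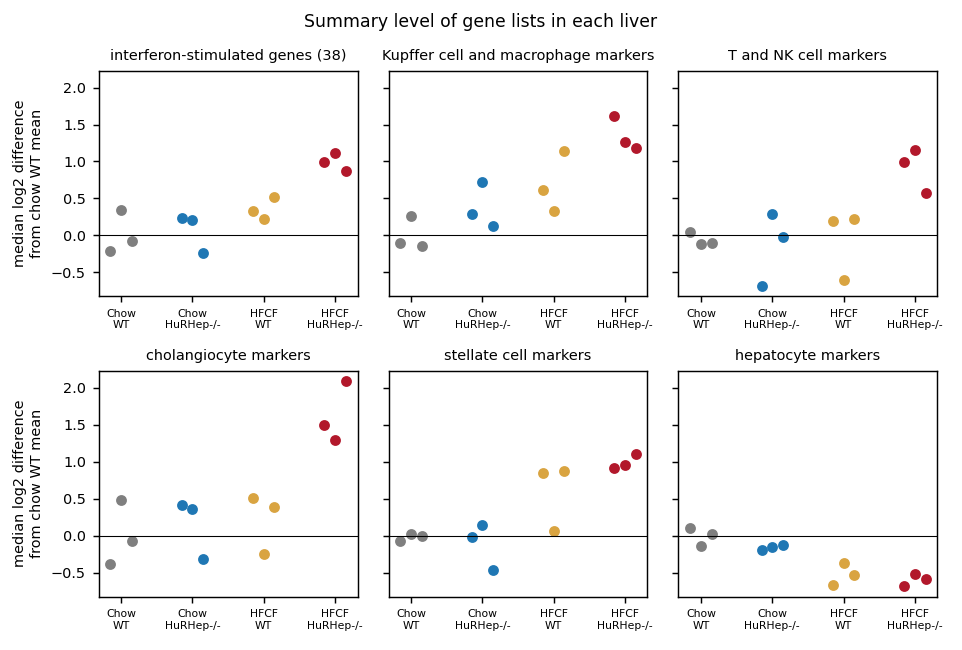
Median log2 difference from the chow WT mean (y axis) over the genes of 6 lists in each of the 12 livers (points, 3 per group on the x axis). The interferon-stimulated genes lie at 0.87 to 1.11 in HFCF HuRHep-/- and at 0.23 to 0.52 in HFCF WT, and the macrophage, T and NK cell and cholangiocyte lists are also highest on average in HFCF HuRHep-/-.

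HuR binds AU-rich elements, of which the pentamer ATTTA is the core. It occurred in the 3′ untranslated region of 24 of the 38 genes (63.2%) and of 65.1% of 13263 genes tested in HFCF. Set against the calls, the ISRE letters showed no single direction. Of the 15 genes with the letters, 4 were called between genotypes in HFCF (median log2 fold change 0.53), and of the 13 without them 1 was (*Cmpk2*, median 0.39), where 2.15% of all genes were called higher. With diet in HuRHep-/- the counts were 10 of 15 (median 1.07) and 7 of 13 (median 0.69), where 14.2% of all genes were called higher. With diet in WT they were 1 of 15 (median 0.40) and 3 of 13 (median 0.48), where 6.14% were. Between genotypes in chow none was called (limma) and the medians were -0.11 with the letters and 0.16 without. The 38 genes include neighbours that share promoter sequence or reads, so these counts are not of independent genes.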

How the data were processed

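The authors sequenced 12 libraries of liver RNA, made with a NEBNext stranded kit. Alignment was to GRCm38.p6 with CLC Genomics Workbench. The authors deposited read counts per gene, not normalized, in 1 table per diet (20775 and 22709 genes). The values are whole numbers in which longer ones hold a comma, which was removed here, and because the cells are text their unit was recorded as other. Counts were turned into log2 CPM (pseudocount 0.5, TMM factors written anew with trims of 0.3 and 0.05). A gene was tested if 3 or more libraries held the equivalent of 10 counts and all libraries together 15. They were tested with limma 3.58.1 (R 4.3.3) with a variance trend and Benjamini-Hochberg adjustment over all genes, which was tested on simulated data. Genotype fits used the 6 libraries of a table, and diet and interaction fits all 12. The quasi-likelihood count test and the authors' CLC test were not used.

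The 38 genes and the other lists were chosen with earlier results of these data known. Values are named for the 16 genes with the smallest unadjusted p among the 23 called in at least 1 of 5 comparisons, for at most 4 called genes per direction of each other list, and for *Elavl1*. *Ddx58*, *Iigp1*, *Usp18*, *Rsad2*, *Bst2* and *Ifnar2* were added after their values were seen. Other members, such as *Ifih1*, *Irgm1* and *Ifi27*, carry a value only as part of a role group or as an end of a range. Shared sequence is the share of 31-base words of the longest GENCODE vM21 transcript found in other genes, and positions are from that annotation. Read length is not given in the sources used here. The replicate numbers were taken from the labels and were not used to pair the libraries in the fits given above. In chow the correlation of same-numbered deviations ran from -0.028 to 0.11, within the range of differently numbered libraries (-0.15 to 0.15). In HFCF it ran from 0.090 to 0.21, above that of all differently numbered libraries (at most 0.033). Whether the numbers mark pairs in HFCF was not tested. One list of signalling genes is not reported here.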

Additional observations from a re-analysis of the deposited data

How the results depend on the processing

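Between genotypes in HFCF, 6 of the 38 genes were called, and this count was 10 with a replicate block, 0 in a test against a fold change of 1.5 and 2 in a fit over all 12 libraries. The shares of all genes called with the block and in the 12-library fit are not given here. The counts of the 38 in those settings therefore cannot be read as particular to these genes. Leaving out 1 library gave 0 to 10. In livers labelled WT, the count with diet was 6, and it was 0 in the test against a fold change of 1.5 and 2 to 12 without 1 library. In livers labelled HuRHep-/- it was 23, and 2 in the test against that fold (*Isg15* and *Ifi44*) and 16 to 24 without 1 library. In chow the genotype count was 0 and ran from 0 to 1 without 1 library, with 0 in the other 10 settings (the block included). The interaction count was 0 in every setting run. By their labels, the same-numbered libraries share only a number. In HFCF each library correlated best with its own number, a hint from the data and not from the design. Where 1 of the 16 named genes was called, its direction was the same in every setting run; estimates that were not called, and genes outside the 16, were not rerun one by one.

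Over all genes tested, the test against a fold change of 1.5 called 6 genes (303 otherwise) between genotypes in chow, 11 (517) in HFCF, 86 (1363) with diet in WT and 364 (2771) with diet in HuRHep-/-. The adjusted p alone, with no fold threshold, called 564, 958, 3429 and 5565. The causes were not tested beyond what each setting changes by construction. With 3 libraries per group, a single-gene exact permutation test cannot go below p = 0.1 (two-sided).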
